A study of Mus musculus with 5 samples.

Results

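The matrix metalloproteinases (MMPs) and the tissue inhibitors of metalloproteinases (TIMPs) were followed across 5 mouse co-cultures, each hybridised to 1 array. The 9 genes were Mmp9, Mmp13, Mmp3, Mmp2, Mmp14, Mmp12, Timp1, Timp2 and Timp3, and every probe set that the array's annotation assigns to one of them was taken. That gave 15 probe sets of 12488, and 9 genes of the 8251 that carry 1 gene symbol. Probe sets were taken by gene symbol, whatever their intensity.

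The arrays came from haematopoietic cells grown for 6 days on the stromal cell line ST2-T with 1,25-dihydroxyvitamin D3 and the glucocorticoid dexamethasone, which are conditions under which osteoclasts form. The 5 groups were Fos-/- splenocytes infected with a deltaNFAT virus, Fos-/- splenocytes infected with a virus for green fluorescent protein (GFP), Fos-/- splenocytes without virus, Fos+/+ bone marrow cells without virus, and Fos+/+ splenocytes without virus. Fos encodes a component of AP-1, a dimeric transcription factor, and NFAT proteins are a second family of transcription factors. Details of the deltaNFAT construct, the dose of either virus, and the strain, age and number of the mice, are not stated in the labels. Every dish was harvested whole, so each array holds the RNA of stromal and haematopoietic cells together, and fewer cells of a type and less RNA per cell cannot be told apart. The ST2-T line is the same in all groups, and only the splenocytes or marrow cells carried the Fos genotype.

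MMPs are zinc-dependent enzymes that are made as inactive precursors and cut extracellular matrix once their propeptide is removed. Gelatinases such as Mmp9 and Mmp2 cut denatured collagen, Mmp13 is a collagenase that opens the intact collagen triple helix, Mmp3 is a stromelysin with many matrix substrates, Mmp12 is the macrophage elastase, and Mmp14 sits in the cell membrane. TIMPs bind the active site of these enzymes and block it. In bone, Mmp9 is known as a product of osteoclasts, whereas Mmp13 is known mainly from osteoblasts and chondrocytes.

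With 1 array a group there is no replicate, so no test was run, and no difference below has an error. The values are scaled intensities. The floor was an intensity of 19.8, and lower values were set to it before log2 was taken. A gene was called higher or lower where 2 arrays differed at least 2-fold and the brighter one reached 39.6. Where the dimmer array lay at the floor, the fold is written as "at least". Such a fold is a bound only against this floor, and a higher floor makes it smaller. Levels of different probe sets are not comparable with each other, so each gene is compared only with itself. Several of the 5 comparisons share an array, so they are not independent of each other. Fos-/- over Fos+/+ spleen and deltaNFAT over GFP share none. Of the 9 genes, 8 reached 39.6 in at least 1 array, Mmp3 only through the deltaNFAT array, and Mmp2 did not reach it.

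The share of values above the floor ran from 58.4 to 62.2% over the 5 arrays. Fos itself read 581 with deltaNFAT, 607 with GFP and 426 without virus in the Fos-/- cultures, against 614 in Fos+/+ bone marrow and 849 in Fos+/+ spleen. The stroma carries its own Fos, and where its probes lie in the gene is not stated, so these values do not check the genotype. Markers of the labelled cell types were present in part. Of 16 osteoclast markers 12 could be analysed, and these and all 15 macrophage markers exceeded the floor in at least 1 array. Of the 15 stromal fibroblast markers 13 did, with Thy1 and Alpl under it throughout, and of the 12 neutrophil markers 11 did, with Cxcr2 under it. Of 9 lymphoid markers 5 did. Among the T cell genes, Cd3e, Cd3d, Cd3g and Cd8a were under the floor in every array. Cd4 was above it in all 5, from 25.0 in Fos+/+ spleen to 167 in Fos-/- spleen without virus.

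**Figure D1:**
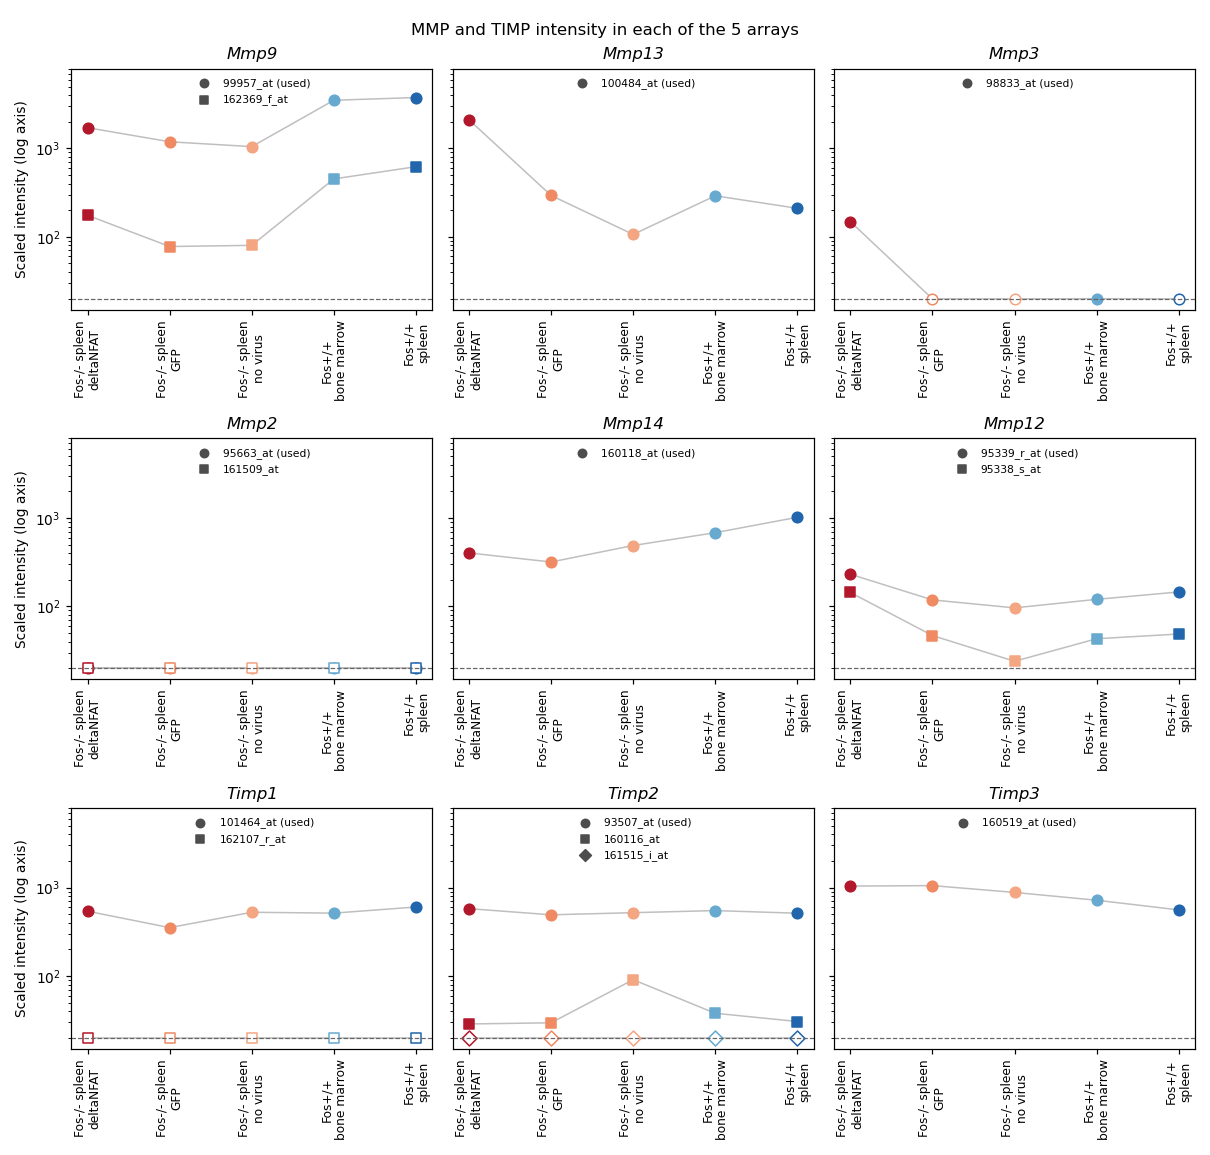
Scaled intensity on a log axis for each of the 9 genes, with the 5 arrays along the x axis. Each point is 1 array and 1 probe set, grey lines only join the points of a probe set, the dashed line is the floor of 19.8, and open symbols are values at or under it. Mmp9 is highest in the 2 Fos+/+ arrays, whereas Mmp13 and Mmp3 are highest in the deltaNFAT array.

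Mmp9 separated the Fos+/+ from the Fos-/- cultures. It read 1714 with deltaNFAT, 1188 with the GFP virus and 1046 in Fos-/- spleen without virus, against 3504 in Fos+/+ bone marrow and 3760 in Fos+/+ spleen. The 3 Fos-/- arrays did not overlap with the 2 Fos+/+ arrays, and the 2 Fos+/+ arrays lay within 1.07-fold of each other. Fos-/- spleen was 3.59-fold lower than Fos+/+ spleen, the 81st lowest ratio of the 4999 genes bright enough in this comparison. Mmp9 thus kept 27.8% of its Fos+/+ spleen level in Fos-/- spleen, 31.6% with GFP and 45.6% with deltaNFAT. Ctsk, which encodes the osteoclast collagenase cathepsin K, was 46.7-fold lower in the same Fos-/- against Fos+/+ spleen comparison.

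The second Mmp9 probe set showed the same order between genotypes and larger ratios. It read 174.8 with deltaNFAT, 77.5 with the GFP virus and 79.9 in Fos-/- spleen, against 451 in Fos+/+ bone marrow and 620 in Fos+/+ spleen. Its Fos-/- spleen value was 7.77-fold lower than that of Fos+/+ spleen. It differs from the brighter one on deltaNFAT. In this dimmer probe set deltaNFAT was 2.26-fold higher than GFP, and in the brighter one 1.44-fold higher, which is short of the call. Over no virus the dimmer probe set was 2.19-fold and the brighter one 1.64-fold higher with deltaNFAT. The dimmer probe set carries a letter in its identifier that marks probes shared within a family of sequences.

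Markers of other cells moved in the same comparison as Mmp9. Of the 12 osteoclast markers, 10 were lower and 0 higher in Fos-/- than in Fos+/+ spleen, and their summed intensity was 1560 against 13695. Neutrophils also store Mmp9. Their 12 markers had 5 higher and 0 lower, with sums of 3513 in Fos-/- and 1738 in Fos+/+ spleen. In Fos+/+ bone marrow the neutrophil sum was 10189 against 1738 in Fos+/+ spleen. The macrophage markers had 4 higher and 1 lower, with sums of 17521 in Fos-/- and 12045 in Fos+/+ spleen. Stromal fibroblast markers had 2 higher and 0 lower, with sums of 16972 and 14105, and lymphoid markers 1 higher and 0 lower. Over all genes bright enough in Fos-/- over Fos+/+ spleen, 6.4% were higher and 6.52% lower. The part of any of these cell types in the Mmp9 difference was not tested.

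Mmp14 was the other member that was lower in all 3 Fos-/- arrays. It encodes a membrane-anchored MMP that activates the precursor of Mmp2, and it read 402 with deltaNFAT, 318 with the GFP virus and 488 in Fos-/- spleen, against 682 in Fos+/+ bone marrow and 1018 in Fos+/+ spleen. The groups did not overlap, but the gap was small, since the highest Fos-/- value was 488 and the lowest Fos+/+ value 682. Fos-/- spleen was 2.09-fold lower than Fos+/+ spleen, just past the threshold. Of the other 8 members Mmp14 was the closest to Mmp9 in pattern, with a root mean square difference of 0.42 between their log2 values centred over the 5 arrays. The remaining distances from Mmp9 ran from 0.66 for Timp1 to 1.59 for Mmp13.

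In total, Fos-/- over Fos+/+ spleen had 2 of the 9 members lower, 0 higher, 5 not called and 2 too dim. Over all genes bright enough, 6.52% were called lower and 6.4% higher. The median log2 ratio over the 9 members was -0.20, with dim genes at 0, and over all 8251 genes it was 0. Of the 8 members that reached 39.6 somewhere, 2 were lower in all 3 Fos-/- arrays than in both Fos+/+ arrays, a pattern of 15.1% of all such genes, and 1 was higher, a pattern of 10% of them. The pair lower in all 3 was Mmp9 and Mmp14, which were also the 2 called.

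**Figure D2:**
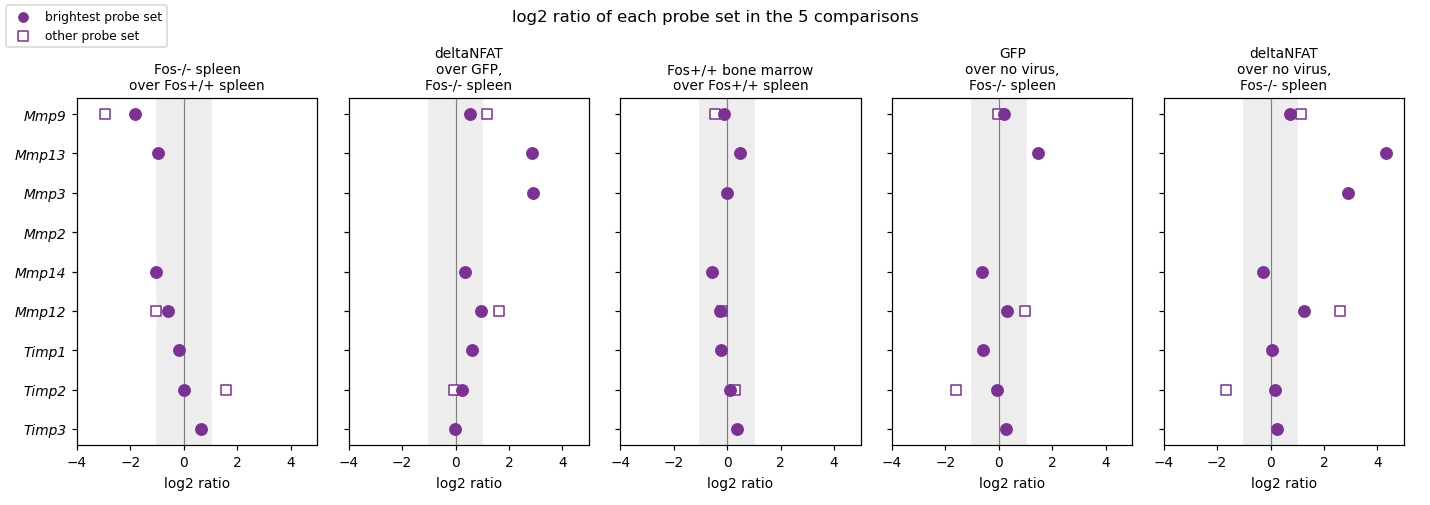
The log2 ratio of every probe set of the 9 genes in the 5 comparisons, with filled circles for the brightest probe set of a gene and open squares for the others. The grey band is a ratio under 2-fold, and probe sets at the floor in both arrays are not drawn. Mmp9 and Mmp14 lie left of the band in the first panel, and Mmp13 and Mmp3 right of it wherever deltaNFAT is compared.

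Mmp13 and Mmp3 followed another pattern, in which the deltaNFAT array stood above the other 4. Mmp13 read 2107 with deltaNFAT, 293 with the GFP virus and 106 in Fos-/- spleen without virus, against 291 in Fos+/+ bone marrow and 209.7 in Fos+/+ spleen. Its deltaNFAT value was 7.19-fold over GFP and 19.8-fold over Fos-/- spleen without virus. Mmp3 read 148 with deltaNFAT, 9.30 with the GFP virus and 13.7 in Fos-/- spleen, against 19.9 in Fos+/+ bone marrow and 3.90 in Fos+/+ spleen. Against the floor of 19.8 its deltaNFAT value was at least 7.48-fold over GFP, but this size rests on the floor. The log2 ratio of 2.90 was 1.19 at a floor of 65.1 and 0.62, short of the call, at a floor of 96.6. For Mmp13 the deltaNFAT array was 7.19-fold over the next highest array. A deltaNFAT value at least 2-fold over each of the other 4 arrays was found in 32 of 5564 genes that reached 39.6 somewhere, or 0.575%, among them Mmp13 and Mmp3. Mmp3 reached that brightness only through the deltaNFAT array, so its place in this count was set by the filter.

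The Fos genotype did not order Mmp13. Fos-/- spleen without virus was the lowest of the 5 arrays, 1.97-fold under Fos+/+ spleen and so just short of the call, yet the GFP array of the same genotype was level with Fos+/+ bone marrow. GFP was 2.76-fold higher than no virus in Fos-/- spleen, which is a call in the control virus itself. In that comparison the neutrophil markers had 4 higher and 0 lower, with sums of 7334 with GFP and 3513 without virus, and the macrophage markers 2 higher and 0 lower, with sums of 19529 with GFP and 17521 without virus. These 2 macrophage genes were the mannose receptor Mrc1, 4.88-fold higher, and the scavenger receptor Msr1, 4.47-fold higher. Of the lymphoid markers 1 was higher and 2 lower, of the osteoclast markers 0 and 1, and of the stromal markers none was called. Over all genes bright enough, 10.3% were higher and 7% lower with GFP. The part of these cell types in the Mmp13 difference was not tested. The ratio of deltaNFAT to no virus therefore exceeds that to GFP, and both share the deltaNFAT array. Mmp3 was at the floor, or within 0.1 above it, in the 4 arrays other than deltaNFAT, so no order can be read among them.

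Mmp12 was also highest with deltaNFAT, by a smaller margin. Its brighter probe set read 230.8 with deltaNFAT, 118 with the GFP virus and 96.1 in Fos-/- spleen, against 120.0 in Fos+/+ bone marrow and 145 in Fos+/+ spleen. DeltaNFAT was 1.95-fold over GFP, short of the call, and 2.40-fold over no virus. The dimmer probe set read 143.5 with deltaNFAT, 46.7 with the GFP virus and 23.9 in Fos-/- spleen, against 43.0 in Fos+/+ bone marrow and 48.6 in Fos+/+ spleen. In it deltaNFAT was 3.07-fold over GFP, which is past the threshold, and 6.00-fold over no virus. In it Fos-/- spleen was 2.03-fold lower than Fos+/+ spleen, against 1.51-fold in the brighter one. Both Mmp12 probe sets carry a letter that marks less specific or less complete probe designs.

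Mmp13, Mmp12 and Mmp3 lie in this order on chromosome 9, with Mmp1b as the only annotated gene between Mmp12 and Mmp3 in the RefSeq table (GRCm38.p6). Their upstream sequences are shown because these were the 3 MMP genes that were highest in the deltaNFAT array. Timp2, an inhibitor gene, was also highest in that array, and its sequence is not shown. A further reason was that AP-1, of which Fos is a subunit, binds a short motif that can be looked for in the sequences shown. Each is the 250 bases before the annotated start, 5′ to 3′ on the gene's strand, from RefSeq (GRCm38.p6), with the AP-1 motif TGANTCA in capitals. Mmp12 has 2 annotated starts, and the downstream one is shown because it is the one that holds the motif.
Mmp13, chr9:7272264-7272513, + strand: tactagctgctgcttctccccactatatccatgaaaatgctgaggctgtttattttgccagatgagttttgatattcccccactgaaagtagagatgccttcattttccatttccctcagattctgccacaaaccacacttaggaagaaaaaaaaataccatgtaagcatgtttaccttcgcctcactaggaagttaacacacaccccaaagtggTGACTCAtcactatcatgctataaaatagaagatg
Mmp3, chr9:7445572-7445821, + strand: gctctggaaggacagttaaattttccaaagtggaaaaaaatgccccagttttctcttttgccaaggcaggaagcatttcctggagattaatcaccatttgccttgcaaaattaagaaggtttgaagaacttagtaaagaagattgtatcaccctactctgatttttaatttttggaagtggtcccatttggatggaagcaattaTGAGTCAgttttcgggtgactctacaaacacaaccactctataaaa
Mmp12, chr9:7347124-7347373, + strand: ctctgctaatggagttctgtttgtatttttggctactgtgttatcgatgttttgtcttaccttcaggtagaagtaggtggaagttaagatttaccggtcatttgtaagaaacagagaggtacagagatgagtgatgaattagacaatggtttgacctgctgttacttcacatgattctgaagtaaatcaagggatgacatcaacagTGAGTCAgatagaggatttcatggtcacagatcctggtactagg

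Of the 4 windows of these 3 genes, the 3 shown held 1 AP-1 motif each, beginning 35 bases before the annotated start in Mmp13, 46 in Mmp3 and 44 in Mmp12. The upstream Mmp12 window held 0. The motif reads alike on both strands, and 6.75% of the 32851 promoter windows of this length in the table held it. Windows were found for 7 of the 9 members, all but Mmp9 and Mmp2, so the Mmp9 promoter was not searched. Those of Mmp14, Timp1, Timp2 and Timp3 held 0 AP-1 motifs. Timp2 was also highest with deltaNFAT, at 578 against 549 in Fos+/+ bone marrow, so not every member with this pattern held the motif. Of the 5564 genes bright enough in some array, 13.2% were highest in the deltaNFAT array, and so were 4 of the 8 such members. Of these 4, Mmp3 was bright enough only through that array, and Timp2 led the next highest array by only 1.05-fold. The count therefore does not test enrichment. The NFAT core GGAAA, searched on both strands, was present 2 times in Mmp13, 3 times in Mmp3, once in Mmp14 and Timp1, and not in either Mmp12 window. This short motif occurred in 55.6% of all windows. The RUNX motif AACCACA, named for the factors that include the osteoblast regulator Runx2, was found once, in Mmp13 at 119 bases before the start, and in 4.40% of all windows on either strand. None of these motifs overlapped another. A match describes the letters of a window and not a bound site.

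**Figure D3:**
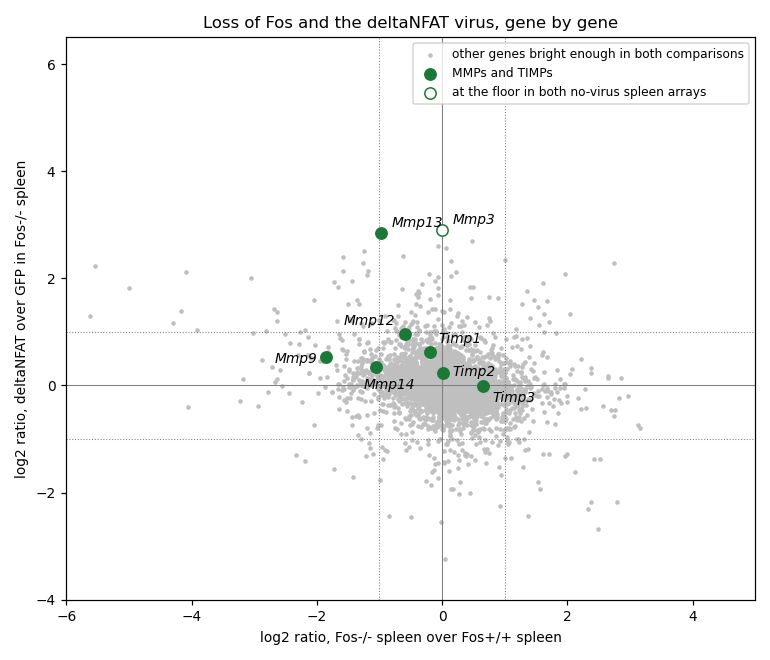
Each point is a gene, with its log2 ratio of Fos-/- over Fos+/+ spleen on the x axis and of deltaNFAT over GFP on the y axis, 2 comparisons that share no array. Green marks the MMPs and TIMPs, the open circle is Mmp3, which was at the floor in both spleen arrays without virus, and dotted lines mark 2-fold. Mmp9 lies left at -1.85 and 0.53, and Mmp13 high at -0.98 and 2.85.

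Between deltaNFAT and GFP, 2 of the 9 members were called higher, 0 lower, 6 were not called and 1 was too dim. Over all 5033 genes bright enough, 3.52% were higher and 2.66% lower. By size of the upward ratio Mmp13 ranked 5 of those genes. The other call, Mmp3, was bright enough only through the deltaNFAT array and is lost at a floor of 96.6. The members were chosen with earlier results of these data known, so their counts beside these shares do not test enrichment. The median log2 ratio was 0.53 over the 9 members and 0 over all genes. Against no virus, deltaNFAT had 3 of 9 members higher and 0 lower, where 11% of all genes were higher and 6.66% lower. Mmp3 was again among the members called. In GFP over no virus Mmp13 alone of the 9 was called, where 10.3% of all genes were higher and 7% lower. The last 2 comparisons share the array without virus.

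Marker lists were set beside the deltaNFAT difference. Of the 12 osteoclast markers 7 were higher with deltaNFAT than with GFP and 0 lower, with sums of 2772 and 1030, which remained below the 13695 of Fos+/+ spleen. In Fos+/+ spleen, which had no virus, Mmp13 read 209.7 and Mmp3 was under the floor. The 15 stromal fibroblast markers had 0 called, with sums of 15829 with deltaNFAT and 17050 with GFP. Of the 15 macrophage markers 1 was higher, with sums of 18036 and 19529, and of the 12 neutrophil markers 0 were called, with sums of 5027 and 7334. Over all genes bright enough in deltaNFAT over GFP, 3.52% were higher and 2.66% lower. Which cells of the dish carried the Mmp13 and Mmp3 RNA was not tested.

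No TIMP was called in any of the 5 comparisons by its brightest probe set. Timp1 read 540.2 with deltaNFAT, 352 with the GFP virus and 525 in Fos-/- spleen, against 514 in Fos+/+ bone marrow and 603 in Fos+/+ spleen. Only its GFP value stood somewhat lower, and deltaNFAT was 1.53-fold over it. Timp2 read 578 with deltaNFAT, 492 with the GFP virus and 519.9 in Fos-/- spleen, against 549 in Fos+/+ bone marrow and 512 in Fos+/+ spleen. Its brightest probe set was thus within 1.17-fold in each of the 5 comparisons. Timp3, the inhibitor that binds to matrix, read 1039 with deltaNFAT, 1052 with the GFP virus and 881 in Fos-/- spleen, against 719 in Fos+/+ bone marrow and 559 in Fos+/+ spleen. It was the 1 member higher in all 3 Fos-/- arrays, opposite in direction to Mmp9 and Mmp14, but at 1.58-fold in Fos-/- over Fos+/+ spleen it was not called.

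The other TIMP probe sets gave little more. For Timp2 a second one read 28.6 with deltaNFAT, 29.5 with the GFP virus and 90.7 in Fos-/- spleen without virus, against 37.8 in Fos+/+ bone marrow and 30.5 in Fos+/+ spleen. Its Fos-/- spleen value was 2.97-fold over Fos+/+ spleen, where the brightest probe set gave 1.01-fold, so the probe sets of this gene disagree. The third Timp2 and the second Timp1 probe set were under the floor in every array. Both Mmp2 probe sets were likewise under the floor in all 5 arrays, with a highest value of 6.10, so for Mmp2 there is a bound and no comparison.

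Fos+/+ bone marrow over Fos+/+ spleen had 0 of 9 members called, with 7 bright enough in either array, where 13.1% of all genes were higher and 7.18% lower. By the brightest probe sets the largest difference was Mmp14, 1.49-fold lower in bone marrow, followed by Mmp13, 1.39-fold higher, and Timp3, 1.29-fold higher. The dimmer Mmp9 probe set was 1.38-fold lower in bone marrow, where the brighter one was 1.07-fold lower. The 12 neutrophil markers in the same comparison had 10 higher and 0 lower.

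**Figure D4:**
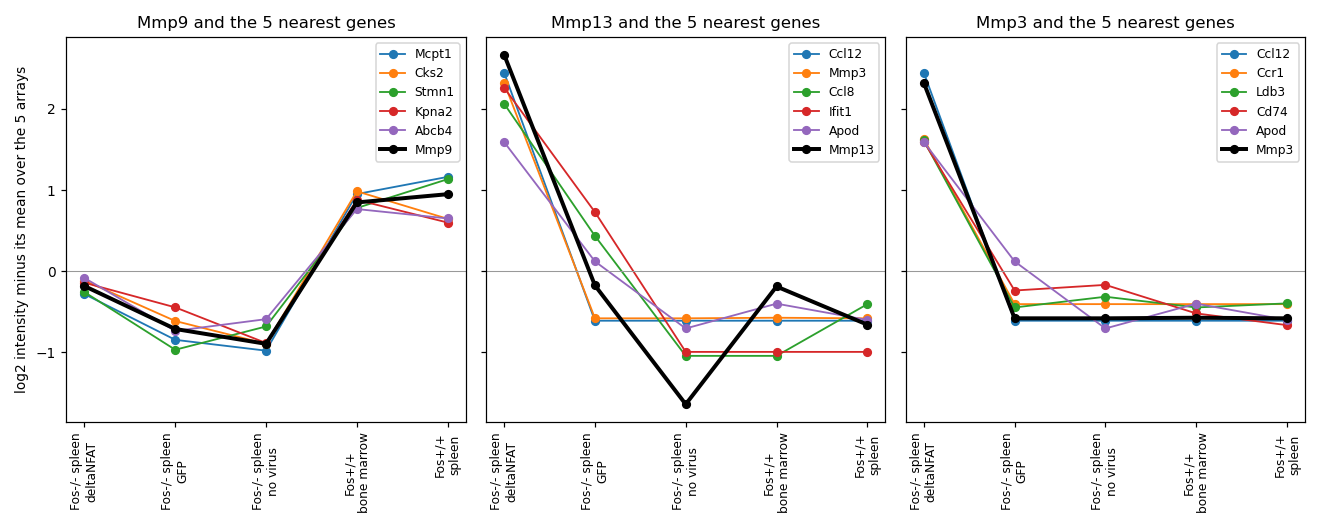
The log2 intensity of each gene minus its mean over the 5 arrays, for Mmp9, Mmp13 and Mmp3 in black and the 5 genes nearest to each in colour. Mmp9 and its neighbours are high in both Fos+/+ arrays, and Mmp13 and Mmp3 with theirs are high in the deltaNFAT array.

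The genes most like each pattern were found among 4402 genes whose brightest array reached 79.2, by the root mean square difference of centred log2 values over the 5 arrays. Nearest to Mmp9 was Mcpt1, a mast cell protease, at 0.13. Cks2, a partner of cyclin-dependent kinases, followed at 0.16, Stmn1, the microtubule regulator stathmin, at 0.18, and the nuclear import factor Kpna2 and the phospholipid transporter Abcb4 at 0.20 each. Nearest to Mmp13 was the chemokine Ccl12 at 0.54, and Mmp3 came second at 0.56. The chemokine Ccl8 (0.61), the interferon response gene Ifit1 (0.66) and the lipocalin Apod (0.66) came next. Each of these neighbours of Mmp13 reached 79.2 only in the deltaNFAT array. Outside that array Ccl12 and Mmp3 were at or near the floor. Their likeness to Mmp13 was therefore set in part by the filter and the floor. No gene was as close to Mmp13 as Mcpt1 was to Mmp9.

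Mmp3 had Ccl12 as its nearest gene at 0.06, since both were at the floor in the arrays without deltaNFAT virus, or within 0.1 of it. Ccl12 had 165 with deltaNFAT and 11.6 with GFP. The chemokine receptor Ccr1 (0.35), the Z-disc protein gene Ldb3 (0.36), the class II invariant chain Cd74 (0.41) and Apod (0.46) followed. These distances describe 5 arrays, of which 4 carry almost no Mmp3 signal. Apart from Cd74, each of these neighbours of Mmp3 reached the brightness required for this search only in the deltaNFAT array. Outside that array Ccl12 and Ccr1 were under the floor, and Ldb3 was under or near it. The likeness of Ccl12, Ccr1, Ldb3 and Apod to Mmp3 was therefore set in part by the filter and the floor.

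The wider protease system was read from 4 lists of related genes. Of 16 other MMP genes 7 had a probe set with 1 symbol, and 4 of these, Mmp7, Mmp10, Mmp17 and Mmp24, were under the floor in every array. Mmp8, the neutrophil collagenase, and Mmp16 exceeded it only with deltaNFAT, at 20.5 and 24.8. Mmp11, also called stromelysin-3, was the 1 gene bright enough. It read 275 with deltaNFAT, 360 with the GFP virus and 514 in Fos-/- spleen, against 261 in Fos+/+ bone marrow and 469 in Fos+/+ spleen, and it was called in 0 of the 5 comparisons. Mmp11 was therefore lowest in the deltaNFAT and bone marrow arrays, unlike Mmp13.

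Of the pericellular proteases and their inhibitors 18 genes were analysed. In Fos-/- over Fos+/+ spleen 1 of the 10 bright enough was higher and 0 lower, where 6.4% of all genes were higher. The 1 gene was Plat, the tissue plasminogen activator, which read 120.4 with deltaNFAT, 109.9 with the GFP virus and 124 in Fos-/- spleen that had no virus, against 90.9 in Fos+/+ bone marrow and -17.4 in Fos+/+ spleen. Only the Fos+/+ spleen array was low, so Plat was called at least 6.27-fold higher in Fos-/- over Fos+/+ spleen and at least 4.59-fold higher in Fos+/+ bone marrow over spleen as well. Between deltaNFAT and GFP 0 of 10 were called. GFP over no virus had 2 of 10 higher and 1 lower, where 10.3% of all genes were higher, and deltaNFAT over no virus 2 of 10 higher and 0 lower, where 11% were. Fos+/+ bone marrow over spleen had 5 of 12 higher and 0 lower, where 13.1% of all genes were higher. Of these genes Adam9, a membrane-bound shedding protease, read 460 with deltaNFAT, 413 with the GFP virus and 134 in Fos-/- spleen, against 439 in Fos+/+ bone marrow and 132 in Fos+/+ spleen. Adam10, which cuts Notch and other surface proteins, read 294 with deltaNFAT, 316 with the GFP virus and 98.9 in Fos-/- spleen, against 266 in Fos+/+ bone marrow and 104 in Fos+/+ spleen. These 2 genes were high in the virus and bone marrow arrays and low in the 2 uninfected spleen arrays. Serpinf2, the plasmin inhibitor, was 2.10-fold lower with GFP than without virus.

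Of the MMP substrates 20 genes were analysed. In Fos-/- over Fos+/+ spleen 0 of the 14 bright enough were higher and 1 lower, where 6.4% of all genes were higher and 6.52% lower. Between deltaNFAT and GFP 0 of 13 were called, where 3.52% were higher and 2.66% lower. GFP over no virus had 0 of 13 called, where 10.3% were higher and 7% lower. For deltaNFAT over no virus it was also 0 of 13, where 11% were higher and 6.66% lower. Fos+/+ bone marrow over spleen had 1 of 15 higher and 0 lower, where 13.1% of all genes were higher and 7.18% lower. The 1 higher gene was the laminin chain Lama1, at least 2.12-fold. The 1 lower gene was Dcn, the collagen-binding proteoglycan decorin, at least 16.1-fold lower in Fos-/- spleen. Dcn read 24.9 with deltaNFAT, 11.3 with the GFP virus and 14.1 in Fos-/- spleen, against 320 in Fos+/+ bone marrow and 320 in Fos+/+ spleen. Col1a1, a chain of type I collagen, read 3853 with deltaNFAT, 4186 with the GFP virus and 3778 in Fos-/- spleen, against 3416 in Fos+/+ bone marrow and 3861 in Fos+/+ spleen. Col2a1, a chain of the type II collagen that Mmp13 cuts preferentially, exceeded the floor only in Fos-/- spleen without virus, at 25.7.

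Of the inducers and regulators of MMP genes 22 were analysed. In Fos-/- over Fos+/+ spleen 1 of the 16 bright enough was lower and 0 higher, where 6.52% of all genes were lower. The 1 gene was Nfatc1, the osteoclast transcription factor, which was 32.0-fold lower. In deltaNFAT over GFP the same gene was the 1 higher of 14, at 3.53-fold, and 0 were lower, where 3.52% of all genes were higher. The labels do not say which NFAT gene the virus carries. The cytokines Il1b, Il6 and Tnf and the prostaglandin synthase Ptgs2, known inducers or companions of Mmp13 and Mmp3 expression, were under the floor in all 5 arrays. In deltaNFAT over no virus 3 of 16 were higher and 3 lower, where 11% of all genes were higher and 6.66% lower. Among them were Osmr, the oncostatin M receptor, 2.45-fold higher, and the AP-1 subunit Fosl2, 2.44-fold lower. In GFP over no virus the AP-1 subunit Fosl1 was at least 3.61-fold lower and Egr1, an early response transcription factor, 2.38-fold higher, with 1 of 15 higher and 2 lower in all, where 10.3% of all genes were higher and 7% lower. Fos+/+ bone marrow over spleen had 5 of 16 lower and 0 higher, where 7.18% of all genes were lower. Among them were Fosl1 at least 3.68-fold lower and Jun 3.45-fold lower. Mmp13 was not called in that comparison, at 1.39-fold higher, and a link between these genes and Mmp13 was not tested.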

How the data were processed

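The authors deposited linear intensities, 1 for each probe set of each array. The software behind them is not given in the sources used. The deposited intensities already had a mean without the lowest and highest 2% of about 100.0 in every array, and 20.3 to 22.4% of an array's values were at or below 0. Here each array was scaled to the same such mean, values under the 40th percentile of all values (19.8) were raised to it, and values were put on the log2 scale. A gene was represented by its brightest probe set. Names came from the platform annotation for 10855 probe sets with 1 symbol, and 10839 matched a RefSeq gene identifier (GRCm38.p6), with 0 symbols different. Calls needed 2-fold and an intensity of 39.6. No test was possible with 1 array a group, and the number of arrays limits all precision. The call procedure was tested on simulated data. Changes were planted there only in genes that read at least 79.2 in Fos+/+ spleen, so finding changes in dimmer genes was not tested. The members and lists were chosen with earlier results of these data known. Named genes were all members, the 5 nearest genes to Mmp9, Mmp13 and Mmp3, and up to 4 called genes per list and comparison with the largest ratio. Genes such as Fos, Col1a1, Mmp11, Mmp8, Mmp16, genes under the floor and list genes given by level were named outside this rule, after their values were seen. Python 3.11.15 with numpy 2.4.6 and pandas 2.3.3 was used. Alternatives were the deposited scaling, quantile normalization, other floors, an added constant, the mean of probe sets and leaving out lettered probe sets.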

Additional observations from a re-analysis of the deposited data

How the results depend on the processing

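Each of the 9 genes was recomputed under 7 alternatives and 1 chosen after seeing the data, a floor of 96.6 equal to the size of the 1st percentile of the values. Of 8 calls of a member in a comparison, 6 held under every alternative that could be run. The exceptions were the 2 calls of Mmp3, whose log2 ratio of deltaNFAT over GFP and over no virus was 0.62 at the floor of 96.6, where 1 member was called higher between deltaNFAT and GFP in place of 2. At a floor of 7.40 (30th percentile), Mmp3 was called higher in Fos+/+ bone marrow over spleen at a log2 ratio of 1.43, from intensities of 19.9 and 3.90, so that 1 member was higher there in place of 0. In the mean of its probe sets Mmp12 was called higher in deltaNFAT over GFP, at a log2 ratio of 1.29. In all, 351 of 355 member ratios kept their side of the threshold, 2 lost and 2 gained a call. The sign turned in 0 called ratios and in 2 uncalled ones, Timp2 in deltaNFAT over no virus, at -0.50 in the mean of its probe sets in place of 0.15, and Timp3 in deltaNFAT over GFP, at 0.02 after quantile normalization in place of -0.02. Mmp12 has no value without lettered probe sets. The log2 ratio of Mmp13 in deltaNFAT over GFP ran from 2.76 to 2.85, and that of Mmp9 in Fos-/- over Fos+/+ spleen from -2.40 to -1.83.

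The counts over all genes depend on the floor. In Fos-/- over Fos+/+ spleen 320 genes were higher and 326 lower, against 502 and 512 at a floor of 7.40, 125 and 139 at 65.1 (60th percentile) and 71 and 98 at 96.6. In deltaNFAT over GFP 177 were higher and 134 lower, against 374 and 258, 37 and 21, and 20 and 10 at the same floors. With a constant added in place of the floor, 180 were higher in Fos-/- over Fos+/+ spleen and 113 higher and 73 lower in deltaNFAT over GFP. In GFP over no virus 529 were higher and 358 lower, with 562 lower at 7.40, 235 and 104 at 65.1, 162 and 52 at 96.6, and 202 lower with the constant. In deltaNFAT over no virus 569 were higher and 345 lower, with 858 higher at 7.40, 243 and 129 at 65.1, 165 and 77 at 96.6, and 209 lower with the constant. In Fos+/+ bone marrow over spleen 694 were higher and 380 lower, with 577 lower at 7.40, 264 and 146 at 65.1, and 160 and 89 at 96.6. There quantile normalization put 51.3% of the calls on the higher side in place of 64.6%, with the median log2 ratio at -0.03 in place of 0.09.

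No paired analysis was possible because each group has 1 array. Signal over background limits Mmp2, which was under the floor in every array, and Mmp3, whose deltaNFAT value of 148 is its only one clear of the floor.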
